A study of Mus musculus with 18 samples.

Results

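The livers described here are the wild type livers of both mouse colonies in a study of selenoprotein synthesis, 10 of its 18 samples. They were chosen by their labels: 5 of the 9 ribosome footprint libraries and 5 of the 9 RNA-seq libraries are labelled wild type. In each assay 2 libraries, called Secisbp2 wild type below, came from wild type littermates of mice lacking Secisbp2 in hepatocytes, and 3, called Trsp wild type, from wild type littermates of mice lacking Trsp there. All were whole livers of male mice of 5 to 8 weeks. The knockouts were conditional, with the genotypes Alb-Cre; Secisbp2 fl/fl and Alb-Cre; Trsp fl/fl, where the albumin promoter restricts Cre to hepatocytes. Neither wild type group carries a deletion, per the labels, which name no strain and do not say whether the littermates carried Cre or floxed alleles.

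Selenoproteins contain selenocysteine, an amino acid encoded by UGA, which elsewhere stops translation. Ribosomes read through that UGA when a hairpin in the mRNA, the SECIS element, is bound by the protein made from Secisbp2 and the selenocysteine transfer RNA, made from Trsp, is delivered. The liver is the main source of the selenium carrier in plasma. A footprint is the stretch of mRNA that a ribosome protects from RNase, so footprints 5' of the UGA report ribosomes that have not yet met it and footprints 3' of it ribosomes that have passed it.

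The question was how far 2 sets of wild type livers, each the control of its own knockout, differed from each other. Colony and library set cannot be told apart, because the library codes of the 2 colonies fall in separate sets. The deposited values are RPKM, read counts scaled by feature length and sequencing depth, for 23 selenoprotein genes, so that no markers of liver cell types could be checked. Over these genes the wild type RNA libraries held 48753 to 221637 reads and the footprint libraries 4737 to 13705 reads 5' of the UGA and 8688 to 16856 reads 3' of it. Secisbp2 wild type replicate 1 was the shallowest RNA library, at a relative depth of 1 against 3.03 to 3.94 in the other wild type RNA libraries. All livers hold several cell types, and fewer cells of a type cannot be told apart from less RNA per cell.

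The footprint library of Trsp wild type replicate 2 stood apart from the other 4. Gpx1 took 55.3% of its summed RPKM 5' of the UGA, against 23.0% to 32.7% in the others. Selenok 5' of the UGA was 233 RPKM there, against 71.5 to 87.4 RPKM in the other Trsp wild type libraries, and Gpx1 3' of the UGA was 751 RPKM against 1324 and 1373 RPKM. The number of genes past the threshold in each comparison is therefore given with and without that replicate, while list counts and counts at an unadjusted p include it; the RNA library of that replicate did not stand apart in this way.

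Libraries of a colony resembled each other more than those of the other colony, most plainly in mRNA. The median absolute log2 difference in mRNA over the 20 genes tested was 0.191 between the Secisbp2 wild type libraries, 0.0842 to 0.155 between Trsp wild type libraries and 0.286 to 0.596 across colonies. For footprints 5' of the UGA the same measure was 0.292, 0.152 to 0.367 and 0.511 to 0.839. For footprints 3' of it, over 12 genes, it was 0.519, 0.186 to 0.561 and 0.446 to 0.826. In mRNA and in the 5' footprints the range across colonies lay above both ranges within colonies, while in the 3' footprints it overlapped them.

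In mRNA, 9 of the 20 genes tested passed the threshold (45%, limma on log2(RPKM + 0.5), adjusted p under 0.05), 4 of them higher in Secisbp2 wild type (20%) and 5 lower (25%). The same number passed at an unadjusted p under 0.05, and the same 9 genes passed without replicate 2 of Trsp wild type. The counts for gene lists below are to be read against these shares. Sephs2, Dio1, Selenof, Selenot and Selenoi were lower, and Gpx2, Gpx4, Txnrd2 and Txnrd3 were higher. Gpx2 is counted among them with the limit given below. The groups did not overlap in any of these 9 genes. They also did not overlap in Msrb1 (357 and 329 against 393, 377 and 414 RPKM) and Selenoo (31.5 and 31.7 against 32.8, 35.3 and 37.5 RPKM), which did not pass. With 2 against 3 libraries, groups without overlap were thus common, and are given below as description and not as support. Dio2, Dio3 and Selenon were under the minimum mean of 1 RPKM. The median log2 difference over the genes tested was -0.18. Scaling the libraries to the same median ratio or the same summed RPKM moved this median up by 0.15, and the split then became 5 higher and 4 lower: Selenoh (0.29 unscaled) passed at 0.43 under both scalings, and Selenoi no longer passed.

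**Figure D1:**
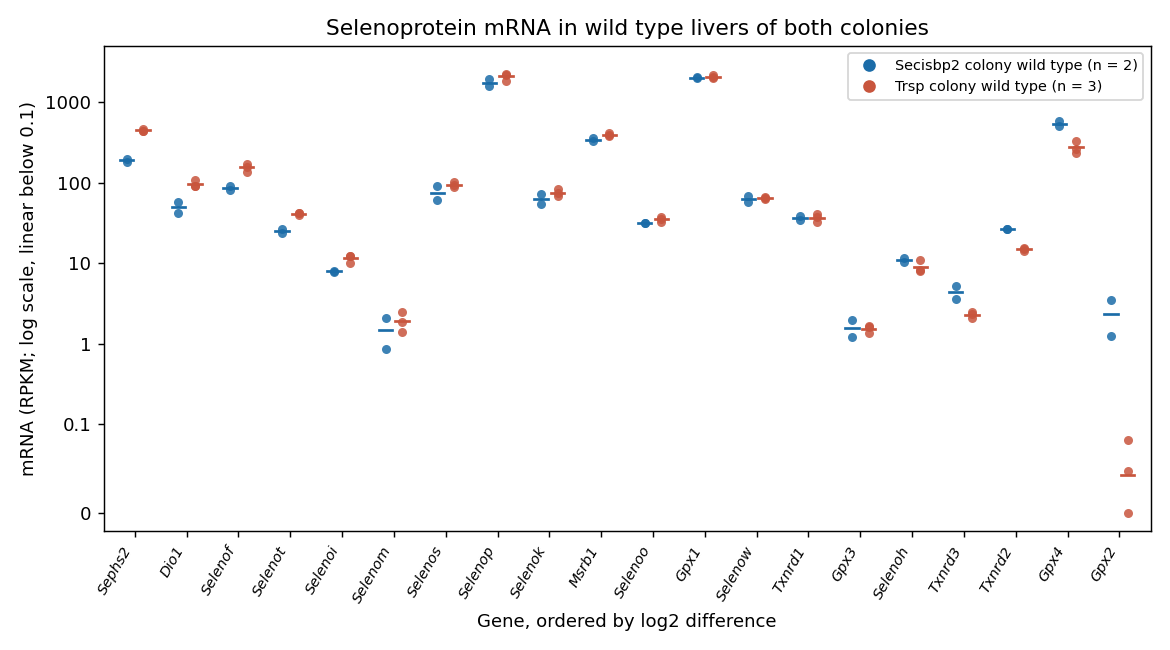
mRNA of the 20 selenoprotein genes tested, in RPKM on a log axis that is linear below 0.1, for 2 Secisbp2 wild type libraries (blue) and 3 Trsp wild type libraries (red); points are libraries and bars are group means. Sephs2, at the left, lay at 183 to 197 RPKM against 439 to 467 RPKM, while Gpx1, in the middle, lay at 1975 to 2184 RPKM in all 5 libraries.

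Sephs2 makes selenophosphate, the selenium donor for selenocysteine synthesis, and is itself a selenoprotein. Its mRNA was 197 and 183 RPKM in Secisbp2 wild type and 467, 439 and 443 RPKM in Trsp wild type. The groups were far apart, with no overlap, at a log2 difference of -1.24 (SE 0.203, limma adjusted p = 0.000686). Selenop, the secreted selenium carrier, was 1569 and 1918 RPKM against 2158, 1854 and 2265 RPKM. These ranges overlapped, and its log2 difference of -0.27 did not pass (95% interval -0.61 to 0.08).

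Among the glutathione peroxidases, which reduce peroxides, 2 of the 4 mRNAs tested were higher in Secisbp2 wild type and 2 did not pass, where 20% of all genes tested were higher and 45% passed in either direction. The median log2 difference was 0.50 against -0.18 over all genes tested. Gpx4, which reduces lipid hydroperoxides in membranes, was at 577 and 501 RPKM against 233, 262 and 329 RPKM. Both Secisbp2 wild type libraries lay above all Trsp wild type libraries, and the log2 difference was 0.98 (SE 0.152, adjusted p = 0.000566 by limma). Gpx2, best known from the epithelium of the gut, was low in every library: 3.44 and 1.23 RPKM against 0.0472, 0 and 0.0817 RPKM. These were 58 reads over the 2 Secisbp2 wild type libraries and 3 reads over the 3 Trsp wild type libraries. Per unit of depth this was 39.1 times as many reads, with an exact 95% interval from 12.7 to 195 for counting error alone. The fitted log2 difference, 2.27 (SE 0.340, limma adjusted p = 0.000562), understates that ratio because 0.5 RPKM is added to each value, and it ranged from 1.68 without Secisbp2 wild type replicate 1 to 2.86 without replicate 2. The pair of Secisbp2 wild type livers differed from each other in Gpx2 as well. With Trsp wild type near 0, Gpx2 entered the mRNA test only through the other groups, so its call is not read as support. Gpx1, the abundant cytosolic peroxidase, was 2011 and 2030 RPKM against 2079, 1975 and 2184 RPKM, a log2 difference of -0.04 (95% interval -0.32 to 0.24) that scaling turned to 0.11. Gpx3, the plasma peroxidase, was at 1.21 to 1.95 RPKM in all libraries.

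For the mRNAs with the most different levels in either direction, the RefSeq promoter windows (GRCm38.p6, 250 bases before to 50 after the annotated start) are given here as sequence context. The window of Sephs2 is chr7:127274010-127274309 and that of Gpx2 chr12:76795505-76795804, both on the minus strand and written 5′ to 3′. Capitals mark TATAAA, searched on both strands together with TGACNNNGC, a core of antioxidant response elements; these genes and motifs were chosen after the values and sequences had been seen.
Sephs2: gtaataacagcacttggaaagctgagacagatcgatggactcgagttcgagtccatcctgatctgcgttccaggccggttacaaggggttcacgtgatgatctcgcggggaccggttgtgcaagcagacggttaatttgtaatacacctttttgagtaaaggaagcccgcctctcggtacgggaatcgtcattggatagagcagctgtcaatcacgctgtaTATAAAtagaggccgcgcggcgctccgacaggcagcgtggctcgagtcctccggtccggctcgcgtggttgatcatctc
Gpx2: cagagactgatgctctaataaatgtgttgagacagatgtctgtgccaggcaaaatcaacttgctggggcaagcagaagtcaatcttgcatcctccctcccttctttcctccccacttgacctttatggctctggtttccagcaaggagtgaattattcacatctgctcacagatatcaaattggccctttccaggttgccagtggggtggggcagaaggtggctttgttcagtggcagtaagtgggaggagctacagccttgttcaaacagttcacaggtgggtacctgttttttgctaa
TATAAA starts at base 222 of the Sephs2 window and occurs in 13.6% of all 32851 promoter windows, and TGACNNNGC in 12.4% of them. Of the 9 genes whose mRNA passed, all with a window, Sephs2 and Selenot held TATAAA and none held TGACNNNGC. The study holds no measurement on these windows, and a match is a description of letters.

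The thioredoxin reductases, which keep thioredoxins reduced, were split. Txnrd2, the mitochondrial enzyme, was at 26.3 and 26.8 RPKM of mRNA in Secisbp2 wild type and at 15.2, 14.0 and 15.6 RPKM in Trsp wild type. The groups did not overlap, and the log2 difference was 0.82 (SE 0.0979, limma adjusted p = 0.000411), the lowest p among the mRNAs. Txnrd3, a form with a glutaredoxin domain that is best known from testis, was at 5.14 and 3.59 RPKM against 2.44, 2.08 and 2.30 RPKM. It was again higher in both Secisbp2 wild type libraries (log2 difference 0.79, SE 0.146, limma adjusted p = 0.00134). Txnrd1, the cytosolic enzyme, was at 38.3 and 34.5 RPKM against 40.6, 37.3 and 32.6 RPKM. Its groups overlapped, with a log2 difference of -0.01 (95% interval -0.29 to 0.27). Of the 3 reductases, 2 were thus higher and 1 did not pass, beside 20% higher and 45% passing in either direction over all genes, and with so few members nothing is read from the count.

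Of the 7 selenoproteins of the endoplasmic reticulum, 6 were tested in mRNA: 3 were lower in Secisbp2 wild type, none was higher, also at an unadjusted p under 0.05, and the median log2 difference was -0.43. Over all genes tested 25% were lower and 45% passed, so the share that passed in this list was near the background. Selenof, which binds the glucosyltransferase that surveys glycoprotein folding, was at 90.4 and 81.1 RPKM against 136, 158 and 170 RPKM, a log2 difference of -0.85 (SE 0.119, limma adjusted p = 0.000562). Selenot, a thioredoxin-like membrane protein, was at 26.8 and 23.6 RPKM against 39.3, 42.0 and 42.5 RPKM, with a log2 difference of -0.70 (SE 0.106, limma adjusted p = 0.000562). Both had groups that did not overlap. Selenoi, an ethanolamine phosphotransferase of phospholipid synthesis, was at 8.06 and 7.74 RPKM against 12.4, 12.4 and 9.99 RPKM. Its log2 difference of -0.52 (SE 0.131, limma adjusted p = 0.00807) came to -0.38 (adjusted p = 0.0895) and -0.37 (adjusted p = 0.0612) under the scalings. Selenom (-0.34), Selenos (-0.34) and Selenok (-0.25) did not pass. Without Secisbp2 wild type replicate 2 they passed at -0.80 (adjusted p = 0.0151), -0.62 (adjusted p = 0.00256) and -0.46 (adjusted p = 0.0189), while the remaining library was the shallow one.

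Dio1, the deiodinase that converts thyroxine to the active hormone, was the 1 deiodinase above the minimum. Its mRNA was at 57.9 and 42.0 RPKM in Secisbp2 wild type and at 91.9, 109 and 91.0 RPKM in Trsp wild type. The groups did not overlap (log2 difference -0.97, SE 0.230, limma adjusted p = 0.00625). Gpx1, Selenow, Selenoh and Msrb1 form the list of 4 mRNAs that track dietary selenium. None of them passed, and none had an unadjusted limma p under 0.05. Selenow, a small thioredoxin-like protein, was at 57.3 and 69.0 RPKM against 66.1, 64.3 and 62.5 RPKM. Selenoh, a nuclear protein of the same fold, had a log2 difference of 0.29, and passed at 0.42 (adjusted p = 0.00768) without Trsp wild type replicate 3. Msrb1, which repairs oxidised methionine, had -0.20, and Selenoo, a mitochondrial enzyme, had -0.15. For this list the median log2 difference was -0.04.

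Fewer genes passed in footprints 5' of the UGA: 3 of 20 (15%), all higher in Secisbp2 wild type by limma, while at an unadjusted p under 0.05 there were 5 higher and 4 lower. Txnrd2 was at 32.4 and 25.4 RPKM against 14.9, 16.4 and 17.4 RPKM. Its log2 difference in these footprints was 0.80 (SE 0.196, limma adjusted p = 0.0274), close to that of its mRNA. Txnrd3 was at 5.73 and 4.58 RPKM against 2.51, 2.89 and 3.09 RPKM (log2 difference 0.76, SE 0.188, limma adjusted p = 0.0274). Both kept non-overlapping groups, and in both the call ended when any of 5 libraries was left out. Their differences were 0.63 and 0.61 (adjusted p = 0.161) with Secisbp2 wild type replicate 1 left out. They were 0.75 and 0.69 (adjusted p = 0.0951) with Trsp wild type replicate 1 left out. They were 0.85 and 0.82 (adjusted p = 0.0647) without Trsp wild type replicate 3. Without either Trsp knockout library the differences stayed at 0.80 and 0.76, since the knockouts serve only the gene filter and the estimate of the spread. Scaled to the same summed RPKM, Txnrd2 and Txnrd3 had a limma adjusted p of 0.0904. Gpx2 had 14.7 and 6.74 RPKM on 13 and 8 reads in Secisbp2 wild type and was listed at 0 in all 3 Trsp wild type libraries. Against a floor of 3 reads over the group it was at least 5.37-fold higher, and the exact 95% lower limit of the ratio of read rates, which also counts the error of the 21 reads, was 3.99. With Trsp wild type at 0, Gpx2 entered this test only through the other groups, so its call is not read as support.

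**Figure D2:**
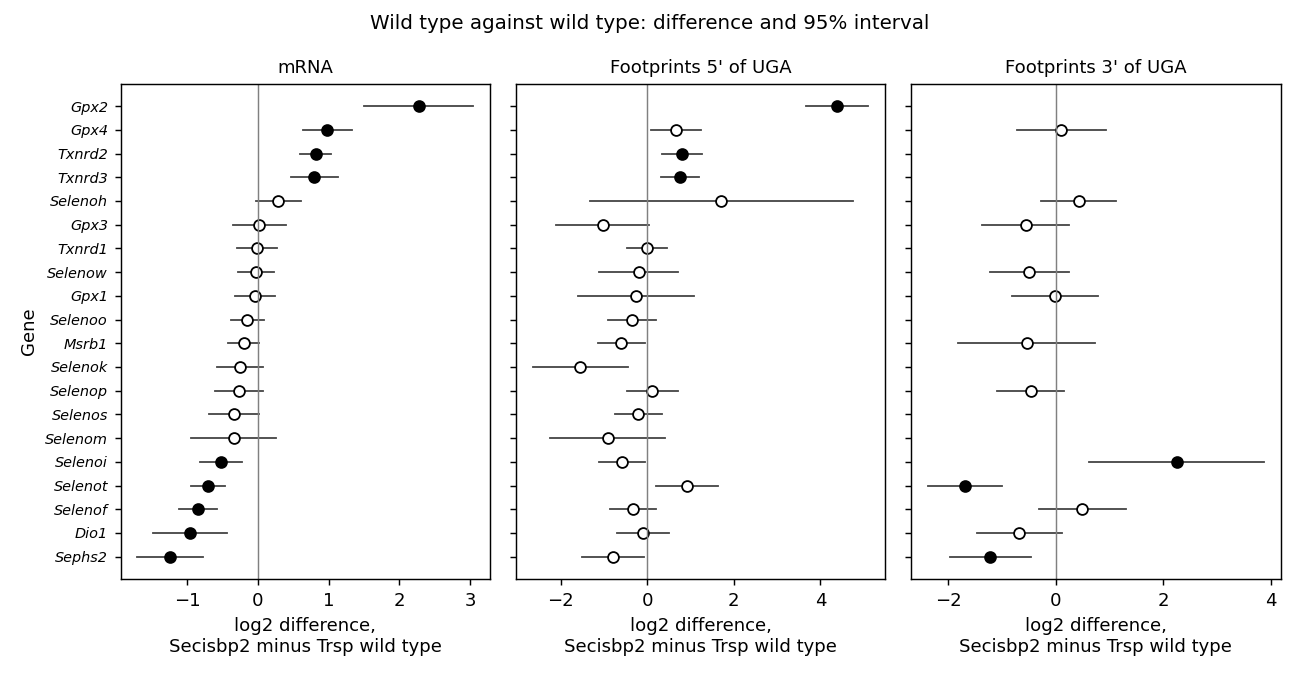
Log2 difference between the wild type groups (Secisbp2 minus Trsp, horizontal axis, scales differing between panels) with its 95% interval for each gene tested in mRNA, footprints 5' of the UGA and footprints 3' of the UGA; filled points passed the limma threshold. Txnrd2 and Txnrd3 stand to the right of 0 in mRNA and 5' footprints, and Selenot lies at -0.70 in mRNA, 0.92 in 5' footprints and -1.69 in 3' footprints.

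None of the other genes 5' of the UGA passed in the main fit. Msrb1 was at 189 and 231 RPKM against 319, 345 and 284 RPKM, a log2 difference of -0.59 (limma adjusted p = 0.0804). It passed with precision weights from the reads (adjusted p = 0.0430), as did Gpx4, Selenoi, Selenok, Selenot and Sephs2. Of the genes that did not pass, Gpx3, Gpx4, Msrb1, Selenof, Selenoi, Selenok, Selenom, Selenot and Sephs2 had groups without overlap. Sephs2 was at 157 and 200 RPKM against 318, 277 and 326 RPKM, a log2 difference of -0.79 (limma adjusted p = 0.0804). Gpx4 was at 488 and 494 RPKM against 300, 325 and 302 RPKM, a difference of 0.67 (limma adjusted p = 0.0804). In both the groups did not overlap, and both passed with the wild type groups alone in the fit (adjusted p = 0.0458). Gpx4 also passed without either Secisbp2 knockout library (adjusted p = 0.0321). Selenok, found in membranes of the endoplasmic reticulum, was at 37.6 and 39.8 RPKM against 87.4, 233 and 71.5 RPKM. Its difference was -1.54 (limma adjusted p = 0.0635), and it passed at -1.02 (adjusted p = 0.0291) without Trsp wild type replicate 2 and at -1.87 (adjusted p = 0.0242) without replicate 3. Gpx3, on 0 to 2 reads, passed at -1.71 (adjusted p = 0.0463) without Secisbp2 wild type replicate 2.

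Of the abundant genes, Gpx1 was at 1508 and 1458 RPKM 5' of the UGA against 1275, 4340 and 1020 RPKM. The Trsp wild type range enclosed the Secisbp2 wild type values, with replicate 2 above them and replicates 1 and 3 below. Selenop was at 1481 and 1920 RPKM against 1502, 1484 and 1664 RPKM, and Txnrd1 at 74.7 and 64.1 RPKM against 60.8, 81.5 and 66.7 RPKM. Both overlapped. Selenof was at 123 and 130 RPKM against 146, 208 and 131 RPKM and Selenoi at 39.5 and 32.2 RPKM against 47.6, 67.9 and 47.7 RPKM. Neither overlapped, and neither passed, with log2 differences of -0.33 and -0.58. Selenow rested on 4 to 9 reads a library 5' of the UGA, at 98.3 and 110 RPKM against 92.0, 112 and 165 RPKM. Selenoh had a log2 difference of 1.72, Selenom of -0.91, Selenoo of -0.35 and Selenos of -0.21. Without Trsp wild type replicate 2, a total of 4 genes passed 5' of the UGA, 3 higher and Selenok lower.

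Selenot 5' of the UGA went the other way from its mRNA. It was at 130 and 158 RPKM in Secisbp2 wild type and at 84.7, 56.0 and 90.0 RPKM in Trsp wild type, on 151, 245, 70, 38 and 52 reads. The groups did not overlap, and the log2 difference of 0.92 did not pass (SE 0.310, limma adjusted p = 0.0749). Per RPKM of mRNA, the 5' footprint density of Selenot, its translational efficiency, was 4.86 and 6.68 in Secisbp2 wild type and 2.16, 1.33 and 2.12 in Trsp wild type. Tested as an interaction of assay and group, the log2 difference came to 1.63 (SE 0.330, limma adjusted p = 0.00609). It came to 1.40 (adjusted p = 0.0917) with Secisbp2 wild type replicate 2 left out. It came to 1.60 (adjusted p = 0.0548) with the libraries scaled to the same median ratio and the wild type groups alone in the fit, which also ended the call for Gpx2.

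In translational efficiency 2 of 20 genes passed (10%), Selenot and Gpx2, both higher in Secisbp2 wild type. None was lower by limma, against 1 lower and 3 higher at an unadjusted p under 0.05. The value for Gpx2 was 2.12 (limma adjusted p = 0.0106), with the Trsp wild type footprints all at 0, so that it depends on the pseudocount. Gpx2 entered this test only through the groups where it was higher, so its call is not read as support. That call was lost without Trsp wild type replicate 1 (2.11, adjusted p = 0.0525) and with precision weights (2.31, adjusted p = 0.325). Dio1 had 1.62 and 1.80 footprint RPKM per mRNA RPKM against 0.941, 0.999 and 0.874. Its groups did not overlap, yet the log2 difference of 0.86 did not pass (SE 0.361, limma adjusted p = 0.167). In RPKM, Dio1 footprints 5' of the UGA overlapped, at 94.0 and 75.7 against 86.4, 109 and 79.5, where its mRNA had not. The thioredoxin reductases had log2 differences in efficiency of 0.01 (Txnrd1), -0.01 (Txnrd2) and -0.03 (Txnrd3), with 95% intervals between -0.52 and 0.48. Without the footprint and RNA libraries of Trsp wild type replicate 2, a total of 3 genes passed, with Selenof added at 0.70 (limma adjusted p = 0.0278).

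Footprints 3' of the UGA could be tested for 12 genes. In these tables Txnrd1, Txnrd2, Txnrd3, Selenok, Selenos and Selenoo, in which little coding sequence follows the UGA, were listed at 0 3' of it in every library. By limma 3 of the 12 passed (25%), with Selenoi higher (8.33%) and Selenot and Sephs2 lower (16.7%). The same number passed without Trsp wild type replicate 2. Sephs2 was at 88.8 and 63.7 RPKM against 183, 149 and 198 RPKM, a log2 difference of -1.22 (SE 0.341, limma adjusted p = 0.0286) that was close to that of its mRNA. This call ended when Secisbp2 wild type replicate 1 was left out (-1.45, adjusted p = 0.0540), when its replicate 2 was (-0.98, adjusted p = 0.193) and when Trsp wild type replicate 3 was (-1.13, adjusted p = 0.0825). Selenoi was at 191 and 164 RPKM against 106, 9.89 and 46.4 RPKM, on 33, 38, 13, 1 and 4 reads, since its window 3' of the UGA was 0.0150 of the length of that 5' of it. Its difference of 2.25 (SE 0.732, limma adjusted p = 0.0449) came to 1.33 without Trsp wild type replicate 2 and to 3.01 without Trsp wild type replicate 1. It did not pass when Secisbp2 wild type replicate 1 (2.14, adjusted p = 0.170) was left out, nor its replicate 2 (2.36, adjusted p = 0.193), nor Trsp wild type replicate 3 (2.42, adjusted p = 0.0554), nor either Secisbp2 knockout library (adjusted p = 0.157). It did not pass at a minimum mean of 5 RPKM (adjusted p = 0.0529) or with the wild type groups alone in the fit (adjusted p = 0.165), and precision weights from the reads brought Selenoi to 1.43 (adjusted p = 0.0563).

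The remaining genes did not pass 3' of the UGA. Gpx1 was at 1337 and 906 RPKM against 1324, 751 and 1373 RPKM, and Gpx4 at 89.5 and 66.4 RPKM against 69.2, 98.3 and 53.9 RPKM. Selenof was at 264 and 163 RPKM against 194, 102 and 159 RPKM, and Dio1 at 16.3 and 9.46 RPKM against 22.9, 23.0 and 15.6 RPKM. All of these overlapped. Selenop, at 620 and 714 RPKM, lay below its 906, 898 and 950 RPKM in Trsp wild type, and Selenow, at 29.7 and 29.4 RPKM, below its 33.2, 57.1 and 38.2 RPKM. Their log2 differences were -0.46 and -0.49 (limma adjusted p = 0.272 for each). Gpx2 held 4 and 2 reads in Secisbp2 wild type and 0 in Trsp wild type, and was under the minimum.

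The ratio of 3' to 5' density in a library is used as a readout of UGA redefinition, the passing of the UGA by ribosomes. It is not the share of ribosomes that pass, since it reached 509% for Selenoi, 215% for Selenof and 135% for Gpx1. The 3' window was also 0.0150 (Selenoi) to 35.3 (Selenow) times as long as the 5' window. The ratio passed the threshold for 1 of 12 genes (8.33%), Selenot, which was lower in Secisbp2 wild type. None was higher by limma, against 1 higher and 2 lower at an unadjusted p under 0.05. Selenot 3' of the UGA was at 8.79 and 7.25 RPKM against 23.1, 32.0 and 26.0 RPKM, on 38, 42, 71, 81 and 56 reads. This gave a log2 difference of -1.69 (SE 0.313, limma adjusted p = 0.00320). The Selenot density 3' of the UGA was thus 6.75% and 4.60% of that 5' of it in Secisbp2 wild type and 27.2%, 57.2% and 28.9% in Trsp wild type, or 5.67% ± 1.52 (SD, n = 2) against 37.8% ± 16.8 (SD, n = 3). All Trsp wild type libraries lay above both Secisbp2 wild type libraries. The ratio and the translational efficiency of Selenot both use its density 5' of the UGA, so their calls are not independent. The log2 difference of the ratio was -2.61 (SE 0.453, limma adjusted p = 0.00877). Without Secisbp2 wild type replicate 2 neither call was kept (3' density -1.56, adjusted p = 0.0534; ratio -2.34, adjusted p = 0.102). Without Trsp wild type replicate 2 the ratio passed for 2 genes, with Selenoi added at 1.74 (adjusted p = 0.0253), and without Trsp wild type replicate 1 Selenoi passed at 3.67 (adjusted p = 0.0240).

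**Figure D3:**
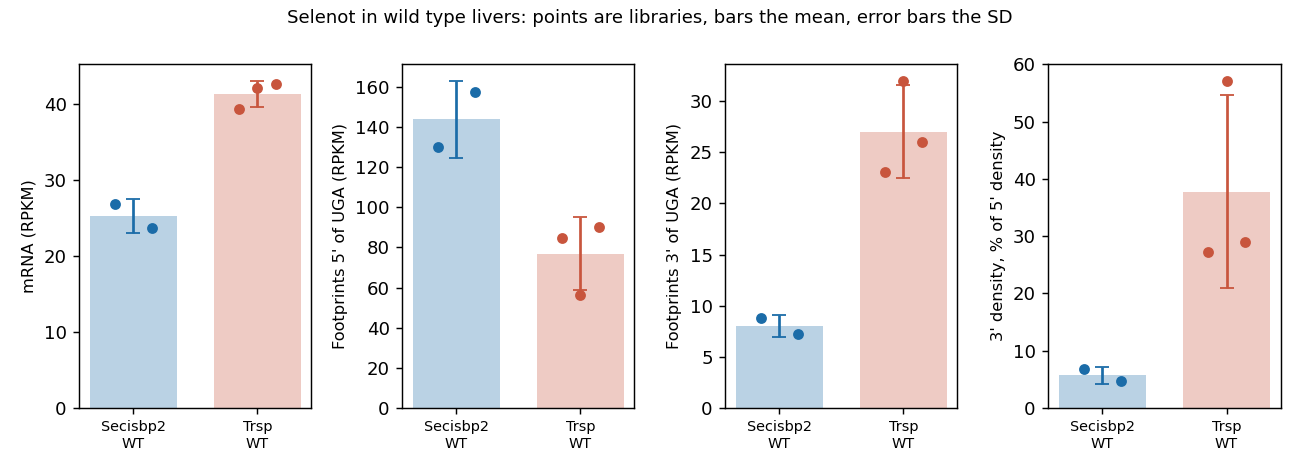
Selenot in wild type livers: mRNA, footprints 5' of the UGA, footprints 3' of the UGA (each in RPKM) and the 3' density as percent of the 5' density; points are libraries, bars the mean and error bars the SD of 2 Secisbp2 wild type and 3 Trsp wild type libraries. The 5' density was higher in Secisbp2 wild type and the other measures lower, the ratio at 4.60% to 6.75% against 27.2% to 57.2%.

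The Selenot ratio of the knockout livers is given beside these values. The Secisbp2 knockout libraries carry codes of another set than their wild type, unlike those of the Trsp knockout. It was 6.74% and 6.21% in Secisbp2 knockout livers and 6.39% and 2.98% in Trsp knockout livers, the last on 5 reads each 3' of the UGA. Against its own wild type, the log2 difference of the Selenot ratio was 0.28 (SE 0.496, limma adjusted p = 0.717) in the Secisbp2 knockout and -2.69 (SE 0.453, limma adjusted p = 0.00146) in the Trsp knockout; these comparisons share the wild type libraries with the one above. Of the 12 genes, the ratio of Gpx4, Selenof and Sephs2 was lower past the threshold in the Secisbp2 knockout than in its wild type. The others did not pass by limma, with Dio1 at 0.90, Gpx1 at 0.52 and Selenop at -0.11 on the log2 scale. In the Trsp knockout the ratio of Dio1, Gpx3, Gpx4, Msrb1, Selenof, Selenop, Selenot, Selenow and Sephs2 was lower past the threshold than in its wild type. There Gpx1, Selenoh and Selenoi did not pass. Some of the genes that passed rested on few reads. In the Trsp knockout, Selenow had 1 and 2 reads 5' of the UGA and 5 reads each 3' of it. Msrb1 had 6 and 2 reads 3' of the UGA there, and Gpx3 had 2, 1 and 1 reads 5' of it in Trsp wild type.

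In the other genes the ratio did not pass. Selenoi had the largest difference of the 12 genes, at 483% and 509% in Secisbp2 wild type and 222%, 14.6% and 97.5% in Trsp wild type. Its groups did not overlap, but with 1 to 38 reads 3' of the UGA the log2 difference of 2.83 did not pass (SE 0.997, limma adjusted p = 0.153). Selenop, whose mRNA carries several UGA codons and a pair of SECIS elements, had a ratio of 41.9% and 37.2% in Secisbp2 wild type and 60.3%, 60.5% and 57.1% in Trsp wild type. The groups did not overlap, and the spread within each was small, but the log2 difference of -0.59 did not pass (SE 0.232, limma adjusted p = 0.159), though with precision weights from the reads it did (adjusted p = 0.0430). Dio1 had 17.3% and 12.5% against 26.5%, 21.2% and 19.6%, also without overlap (-0.57, adjusted p = 0.227 by limma). Gpx4 had 18.4% and 13.4% against 23.1%, 30.2% and 17.8%, and Sephs2 had 56.4% and 31.9% against 57.6%, 54.0% and 60.7%. Gpx4 overlapped between the colonies, as did Sephs2, and so did Selenof, at 215% and 125% against 133%, 49.2% and 121%. Gpx1 had 88.7% and 62.1% against 104%, 17.3% and 135%, where the lowest value came from Trsp wild type replicate 2. Selenow had 30.2% and 26.7% against 36.1%, 50.9% and 23.2%. The median log2 difference of the ratio over the 12 genes was -0.36, and centring each library on its median moved it up by 0.45; Selenot was still lower, and Selenoi was then higher past the threshold.

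**Figure D4:**
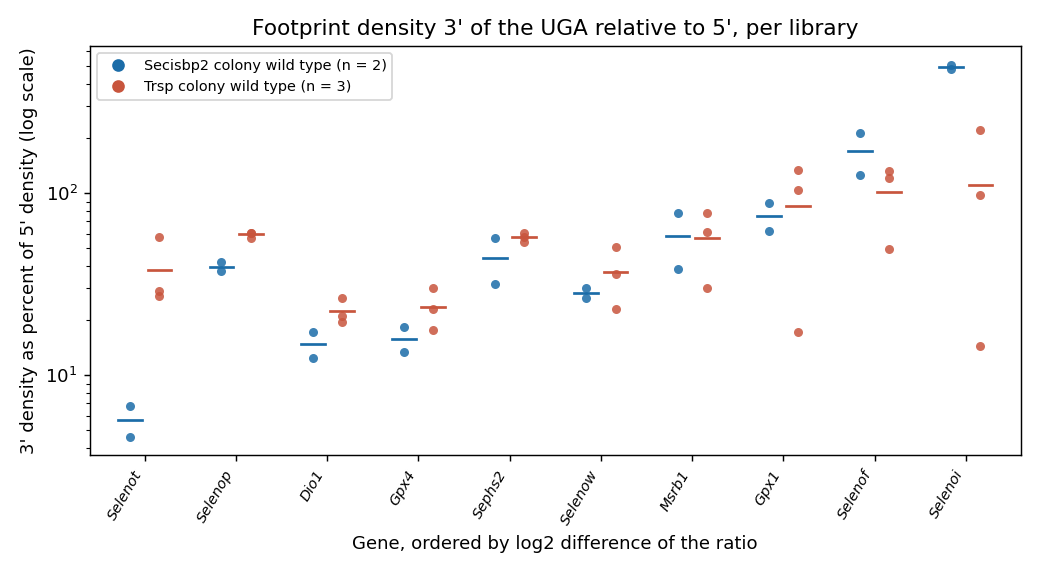
Footprint density 3' of the UGA as percent of the density 5' of it (log axis) for 10 genes in 2 Secisbp2 wild type libraries (blue) and 3 Trsp wild type libraries (red); points are libraries and bars group means, and Gpx3 and Selenoh are left out because a library had 0 5' of the UGA. Selenot, Selenop, Dio1 and Selenoi do not overlap between the colonies, and the lowest Gpx1 and Selenoi points are those of Trsp wild type replicate 2.

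The sizes of the knockout differences are set beside those between the wild types. The median absolute log2 difference in mRNA over the 20 genes was 0.343 between the wild types, 0.502 between Secisbp2 knockout and its wild type and 0.800 between Trsp knockout and its wild type. For footprints 5' of the UGA the values were 0.629, 1.05 and 0.897. These comparisons share wild type libraries, so they are given side by side and not tested against each other. By their codes, Secisbp2 knockout and wild type libraries fall in separate sets, while Trsp knockout and wild type libraries share a set. Genotype and library set therefore cannot be told apart in the Secisbp2 knockout comparison.

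RefSeq annotates pseudogenes of Gpx2, Gpx4, Selenok and Selenot, and no source used here says how reads shared with such copies were counted, so the levels of these genes are uncertain to that extent.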

How the data were processed

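Ribosome profiling and polyA RNA-seq were done on pulverised livers, per the labels' protocols: about 100 mg of tissue was treated with RNase I, monosomes were pelleted through 50% sucrose, and fragments of 20 to 40 nt were sequenced over 50 cycles. They state 3 mice per background, but not which liver each library came from or whether both assays share livers, so p-values measure the spread between these libraries. The authors deposited RPKM values in 3 tables (footprints 5' of the UGA, 3' of it, and RNA), per the file headers. The submitters' processing notes name Bowtie 0.12.8 and the build mm9; counting, windows and filters are not given in the sources used here.

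Of the 23 genes, 11 kept their symbol and 12 were matched by a synonym in a RefSeq table (GRCm38.p6). A cell holding a date (Selenof 3' of the UGA, Secisbp2 wild type replicate 1) was read by its serial number as 263.871 RPKM, a whole 521 reads; a day earlier or later gives 519.026 or 522.974. All 312 footprint and 203 RNA values above 0 were multiples of the worth of a read within 0.02, which the recovery itself sought, and gave read numbers and relative depth. The absolute depth is unknown. Reads are not independent molecules, so intervals and the floor of 3 reads hold for counting error alone.

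Genes whose mean over all libraries of each table entering the comparison reached 1 RPKM were tested on log2(RPKM + 0.5) by limma 3.58.1 (R 4.3.3), two-sided, Benjamini-Hochberg adjusted over all genes tested, threshold 0.05. This scale understates changes of low genes. All 4 groups entered each fit and shared its estimate of the spread; differences are Secisbp2 minus Trsp wild type. The 5 comparisons were mRNA, both footprint tables, their log2 ratio per library, and translational efficiency as an interaction of assay and group. An exact permutation test of 2 against 3 libraries cannot give a p below 0.1. The fits were also run on simulated data, with the same small spread for every gene beside counting error. Some genes varied more than that between libraries, such as Gpx1 5' of the UGA in Trsp wild type. The simulation therefore does not give the error rates of these fits. Alternatives were other pseudocounts, filters, scalings, weights, a replicate block, the wild type groups alone and each library left out. The genes tested stayed the same when a library was left out. For translational efficiency, the footprint and RNA libraries of a replicate number were left out together. Trsp wild type replicates 1 and 3 agreed within sampling noise 3' of the UGA (chi-square p = 0.0537 over genes) but not 5' of it (p = 0.000187), and were kept as separate libraries.

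The text gives each library's RPKM and 3'/5' ratio, where tested, for genes past the threshold in any comparison and for Gpx1, Gpx4, Selenop, Sephs2, Dio1, Txnrd1 and Selenow. Translational efficiency is given per library for Selenot and Dio1; Dio1 was chosen for this, and values of other genes were added, after they were seen. The members, lists and this rule were chosen with earlier results of these data known. Lists with few genes tested (deiodinases, selenium transport) are given by their members; the thioredoxin-like list (Selenow, Selenot, Selenoh) had 1 of 3 mRNAs lower and the genes with a UGA near the stop codon 2 higher and 1 lower of 7, where 45% of all mRNAs tested passed.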

Additional observations from a re-analysis of the deposited data

How the results depend on the processing

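Over 21 alternative settings, 1578 values of single genes were recomputed: 36 lost their call, 32 gained one, and none that passed under either setting changed sign. A further 64 values changed sign without passing under either setting; these include Gpx1, Selenow and Txnrd1 in mRNA, so no direction is read for them. The number of mRNAs that passed stayed within 1.5 times of 9 under every setting run, and the calls for Gpx2, Gpx4, Sephs2, Dio1, Selenof, Selenot, Txnrd2 and Txnrd3 were kept wherever those genes were tested. With each library left out in turn, the number of genes that passed was 9 to 12 for mRNA, 1 to 4 for footprints 5' of the UGA, 0 to 3 for those 3' of it, 0 to 2 for the ratio and 1 to 3 for translational efficiency. Both counts of 0 came without Secisbp2 wild type replicate 2, where limma gave 2 genes 3' of the UGA and 1 for the ratio at an unadjusted p under 0.05. For footprints 5' of the UGA, 5 genes passed with the wild type groups alone in the fit and 9 with precision weights from the reads. For the ratio, 2 passed with no filter on low values, 2 with precision weights and 2 with centred ratios. For translational efficiency, 1 passed at a minimum mean of 5 RPKM and 1 with precision weights. With the median scaling and the wild type groups alone, chosen after seeing the data, 8 mRNAs, 4 genes 5' and 2 genes 3' of the UGA passed, and 0 for translational efficiency, where limma gave 4 at an unadjusted p under 0.05. The cause of these changes was not tested. The kept mRNA call of Gpx2 is not read as support, since Gpx2 entered that test only through the other groups. For translational efficiency, leaving out a replicate removed its footprint and RNA libraries together.

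Scaling the libraries moved the median log2 difference up by 0.13 or 0.15 for footprints 5' of the UGA, with 4 higher and 0 lower, or 1 higher and 1 lower. For footprints 3' of the UGA it moved up by 0.29 or 0.15, with 2 higher and 2 lower, or 1 higher and 2 lower. Translational efficiency dropped by at most 0.02, with 2 higher and 0 lower, or 2 higher and 1 lower. Values on few reads (Gpx2, Gpx3, Selenoi and Selenow in the footprints) limit what can be read from them.

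Replicate numbers are shared by the groups, but the labels do not tie them to a litter or day. With 2 shared numbers, the deviations of same-numbered libraries correlated at -0.29 and -0.17 for RNA, 0.28 and -0.56 for 5' footprints and 0.18 and 0.19 for 3' footprints. With the replicate number as a block, 10, 2, 3, 1 and 2 genes passed for mRNA, 5' footprints, 3' footprints, the ratio and translational efficiency. Under the block Txnrd2 (adjusted p = 0.103) and Txnrd3 (adjusted p = 0.106) lost their calls in 5' footprints, where 1 of the 3 calls was shared, and Selenok gained one (-1.87, limma adjusted p = 0.000940); Selenoh gained one in mRNA (0.42, limma adjusted p = 0.0182). Footprint and RNA libraries were also paired by number, a match the labels do not give, with each pair entered as its log2 difference. Then 3 genes passed for translational efficiency, with Dio1 at 0.86 (limma adjusted p = 0.0108).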
